A study of Mus musculus with 32 samples.

Results

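The 9 genes described here serve glucose output by the liver and its control by insulin, and were taken by name from the 21115 rows of the array table, where each has 1 row. Pck1, G6pc and Fbp1 encode enzymes of gluconeogenesis, Ppargc1a and Foxo1 encode regulators that switch such enzymes on, Insr, Irs1 and Irs2 encode the insulin receptor and its docking proteins, and Igfbp1 encodes a secreted binding protein of insulin-like growth factors. Their values were measured in livers of male C57Bl/6 mice, the offspring of C57Bl/6J parents, with 1 array per mouse. Both parents had eaten either a LF diet, a standard chow with 9% of energy from fat, or a HF diet with 45%, from 6 weeks before mating until the end of lactation, and at weaning every litter went onto HF feed. The groups were therefore LF/HF and HF/HF, named by parental diet and offspring diet, with 7 mice each at 12 weeks and 9 mice each at 28 weeks of age. The parental diets also differed in protein and carbohydrate, and no group of offspring ate chow after weaning. Mice of 28 weeks had therefore eaten HF feed for longer than those of 12 weeks, so age and duration of HF feeding cannot be told apart. The ages were sampled in different mice, and words such as fell or rose mean lower or higher at 28 weeks. Feed was available ad libitum, and whether the mice had been fasted and at what hour the livers were taken is not given in the sources used here. Litters are not given either, so mice were treated as independent and the p-values may be too small if mice of a group share a litter.

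In fasting, the liver makes glucose from lactate, glycerol and amino acids, and the enzymes of this route are controlled largely through the amount of their mRNA. Glucagon and glucocorticoids raise these mRNAs. Insulin, released after a meal, acts through its receptor and the docking proteins on the kinase Akt, which sends the transcription factor Foxo1 out of the nucleus, so that Pck1, G6pc, Irs2 and Igfbp1 are turned down. Igfbp1 is known as one of the mRNAs in liver that respond fastest to insulin. The same hormone induces genes of glycolysis and fatty acid synthesis, so in a normal liver the 2 sets of genes move in opposite directions between feeding and fasting.

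Motifs of these signals were looked for close to the gene starts only. The letters are shown for Igfbp1 and G6pc, which met the study criterion (unadjusted P under 0.05 and a fold change over 1.2) between the ages in at least 1 diet group. They are also shown for Pck1, which did not. Irs1 met the criterion too, in HF/HF offspring, and its letters are not shown. RefSeq promoters of build GRCm38.p6 were found for 8 of the 9 genes. The 250 bases before the start were searched on both strands for CAAAACA, the core of the insulin response element, and for TGACG, a half-site of the cAMP response element. These motifs share no letters in any of the windows. The sequences below are all on the plus strand, at chr11:7197537-7197786 for Igfbp1, chr11:101367466-101367715 for G6pc and chr2:173152823-173153072 for Pck1. Capitals mark the motifs, TGTTTTG and CGTCA being the same motifs read on the other strand.
Igfbp1: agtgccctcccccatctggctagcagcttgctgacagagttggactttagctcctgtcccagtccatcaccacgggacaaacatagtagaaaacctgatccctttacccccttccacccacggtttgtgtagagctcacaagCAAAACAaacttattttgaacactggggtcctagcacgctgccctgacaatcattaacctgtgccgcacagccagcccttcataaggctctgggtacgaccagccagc
G6pc: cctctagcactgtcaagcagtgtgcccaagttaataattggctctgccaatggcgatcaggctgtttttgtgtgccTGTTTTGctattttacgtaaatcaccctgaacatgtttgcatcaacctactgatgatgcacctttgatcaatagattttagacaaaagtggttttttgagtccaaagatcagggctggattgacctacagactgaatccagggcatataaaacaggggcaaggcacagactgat
Pck1: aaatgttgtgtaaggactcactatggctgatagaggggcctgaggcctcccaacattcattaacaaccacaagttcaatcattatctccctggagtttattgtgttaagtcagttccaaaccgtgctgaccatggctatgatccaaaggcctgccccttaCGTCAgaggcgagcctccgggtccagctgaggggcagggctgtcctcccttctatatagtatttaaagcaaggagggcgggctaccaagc
CAAAACA stood once in Igfbp1, at -108 from the start, and once in G6pc, at -174. It was also present in Irs2 at -37 and in Irs1 at -111 and -32, but not within these windows of Pck1, Fbp1, Ppargc1a or Foxo1. TGACG stood in Pck1 at -90, in Ppargc1a at -49 and in Irs1 at -118. Of all 32851 mouse promoters searched, 5.56% held CAAAACA and 17.77% held TGACG. A match of letters is a description and no measure of binding.

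Across the 32 livers, Igfbp1 varied most on the log2 scale of the array intensity and Insr least. The lowest and the highest mouse were 22.1-fold apart for Igfbp1, 4.40-fold for G6pc and 3.54-fold for Pck1. They were 2.67-fold apart for Irs1, 2.34-fold for Ppargc1a, 2.15-fold for Irs2, 1.71-fold for Foxo1, 1.57-fold for Fbp1 and 1.41-fold for Insr. The SD within groups was 0.75 for Igfbp1 and 0.095 for Insr. Array intensities depend on the probes, so levels of different genes are not compared.

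**Figure D1:**
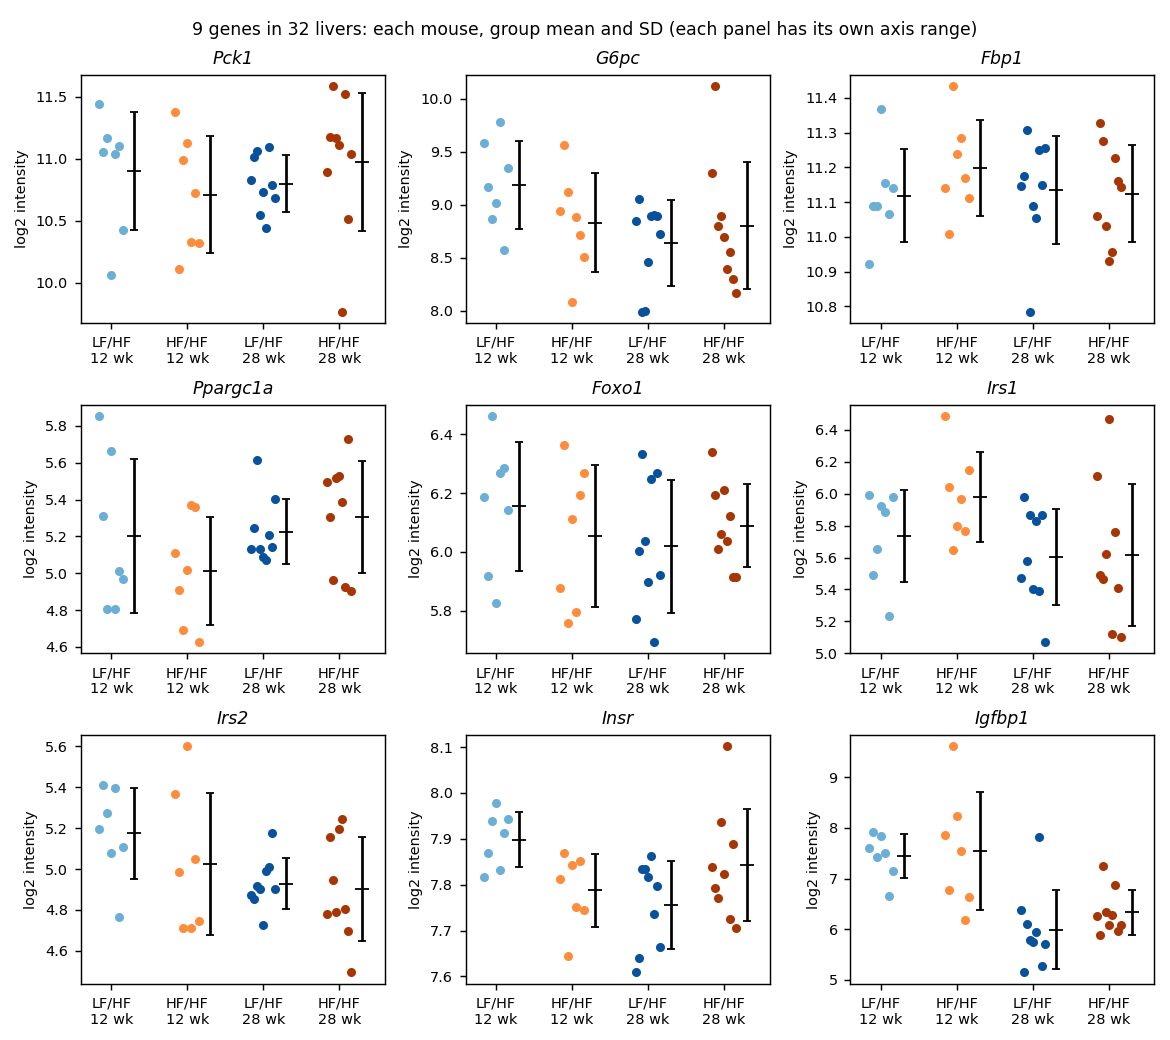
Log2 intensity of each of the 9 genes in every mouse by group (points), with the group mean and SD (bars) beside them; each panel has its own axis. Igfbp1 is the gene whose 28-week groups lie lowest against the 12-week groups, apart from 1 LF/HF mouse at 7.83.

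Igfbp1 was the member with the largest difference, and it lay between the ages rather than between the parental diets. In 12-week-old LF/HF offspring the log2 intensity was 6.66 in the lowest mouse, 7.51 at the median and 7.92 in the highest. In 28-week-old LF/HF offspring these values were 5.15, 5.80 and 7.83. All but 1 of the 9 older mice lay below every younger mouse, the exception being replicate 7 at 7.83. Igfbp1 thus fell by 1.45 on the log2 scale (SE 0.35), which is 2.73-fold, with unadjusted P = 0.000197 and adjusted p = 0.0353 from limma. The two-sided exact permutation test over these 16 mice gave p = 0.00175.

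In HF/HF offspring Igfbp1 differed in the same direction. At 12 weeks its log2 intensity was 6.17, 7.55 and 9.62 in the lowest, median and highest mouse. At 28 weeks it was 5.89, 6.25 and 7.24. The groups overlapped, although all 9 older mice lay below the 12-week mean and 4 of them below every younger mouse. The difference of -1.22 (SE 0.35), a 2.33-fold lower level, had unadjusted P = 0.00132 from limma and p = 0.00612 by the exact permutation test, but adjusted p = 0.295 from limma. Igfbp1 levels were thus ordered 7.55 ± 1.16 (SD, n = 7) in HF/HF and 7.44 ± 0.43 (SD, n = 7) in LF/HF mice of 12 weeks, then 6.33 ± 0.45 (SD, n = 9) in HF/HF and 5.99 ± 0.78 (SD, n = 9) in LF/HF mice of 28 weeks. Neighbours of the same age in this order lay within their spread.

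Comparing 28 with 12 weeks over all genes, 7.22% of genes met the study criterion in LF/HF offspring and 4.1% in HF/HF offspring. Higher at 28 weeks were 3.31% of all genes in LF/HF and 1.76% in HF/HF offspring, and lower were 3.92% and 2.33%. Of the 9 members, Igfbp1 and G6pc met it in LF/HF and Igfbp1 and Irs1 in HF/HF offspring, all of them lower at 28 weeks. An adjusted p under 0.05 was reached by 0.786% of all genes in LF/HF offspring, Igfbp1 being the one member among them, and by 0.0474% of all genes and no member in HF/HF offspring. When each of the 16 LF/HF mice was left out in turn, the adjusted p of Igfbp1 was under 0.05 in 5 fits, those without replicate 6 of 12 weeks or replicate 1, 4, 6 or 7 of 28 weeks, and the call was lost in the other 11. The adjusted p ranged from 0.00537 to 0.0748, while the difference stayed between -1.68 and -1.35. The size in HF/HF offspring depended on 1 mouse, and was -0.87 (unadjusted P = 0.00736 from limma) without HF/HF replicate 3 of 12 weeks, which had the value of 9.62.

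**Figure D2:**
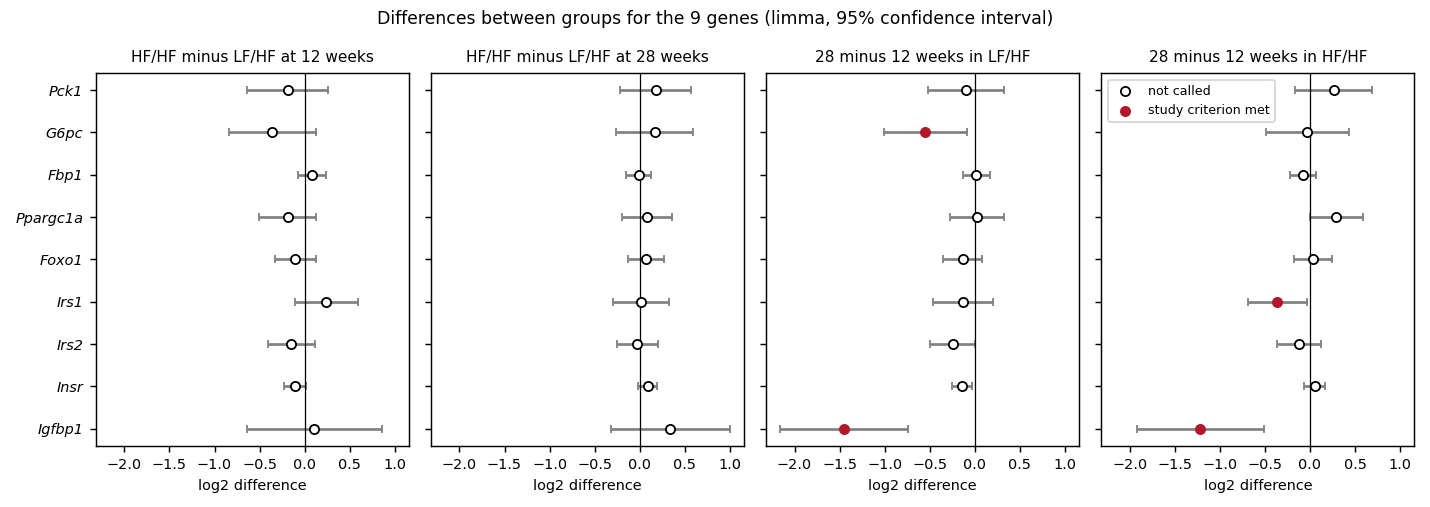
Log2 differences between groups for the 9 genes in each of the 4 comparisons (points, limma) with 95% confidence intervals (bars); filled points met the study criterion. The filled points are Igfbp1 (-1.45) and G6pc (-0.55) for age in LF/HF offspring and Igfbp1 (-1.22) and Irs1 (-0.36) for age in HF/HF offspring.

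The array names fall into 2 series, and every group was spread over both. Igfbp1 was lower at 28 weeks by -1.81 in the first and -1.099 in the second array series in LF/HF offspring (unadjusted P = 0.000722 and 0.0174 from limma). The differences among HF/HF offspring were -1.68 and -0.54, and the second was not called (unadjusted P = 0.229 from limma). With the array series as a block, Igfbp1 differed by -1.49 in LF/HF (adjusted p = 0.0266 from limma) and -1.18 in HF/HF offspring (adjusted p = 0.315 from limma). The 3 HF/HF mice of 12 weeks in the second array series had Igfbp1 values from 6.17 to 7.55, against 6.78 to 9.62 for the 4 in the first.

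**Figure D3:**
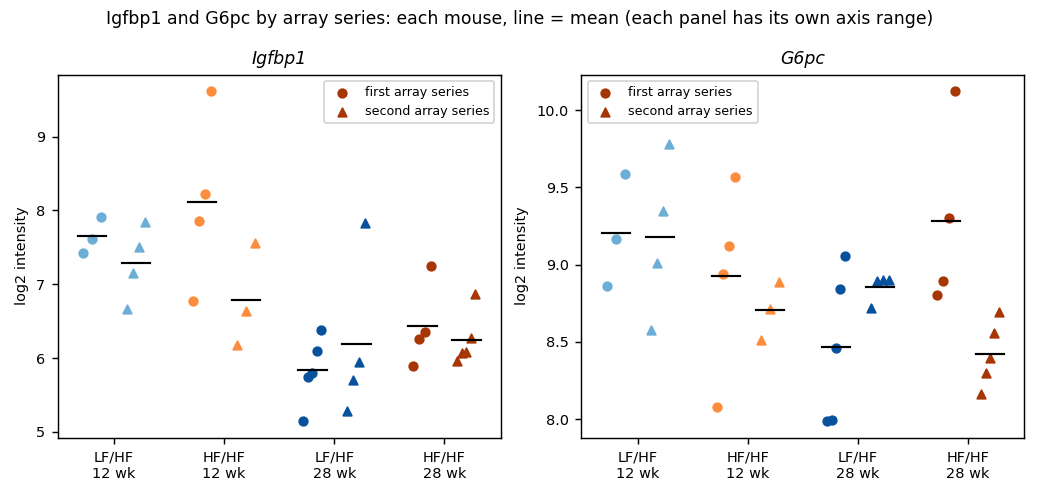
Log2 intensity of Igfbp1 and G6pc in each mouse, split by array series (circles, first; triangles, second), with the mean of each subset (lines). In HF/HF offspring the mean of Igfbp1 went from 8.12 to 6.43 between the ages in the first series and from 6.79 to 6.25 in the second.

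Some markers of other signals and cell types differed between the ages or between single mice. Clock phase, here the mean log2 level of 4 genes that peak near dawn minus that of 11 genes that peak near dusk, was -0.50 ± 1.24 (SD, n = 7) in HF/HF mice of 12 weeks and -1.84 ± 0.46 (SD, n = 9) in those of 28 weeks. It was -1.40 ± 0.86 (SD, n = 7) and -1.79 ± 0.61 (SD, n = 9) in LF/HF mice. With clock phase as a covariate, the difference of Igfbp1 between the ages was -1.36 in LF/HF (adjusted p = 0.0528 from limma) and -0.89 in HF/HF offspring (unadjusted P = 0.0319 from limma). Skeletal muscle markers, 10 genes with a mean log2 level of 2.19 to 2.77 in 29 mice, reached 8.86, 5.88 and 4.30 in LF/HF replicate 1 of 12 weeks, LF/HF replicate 8 of 28 weeks and HF/HF replicate 3 of 12 weeks. Without these 3 mice the differences of Igfbp1 were -1.33 (adjusted p = 0.0354 from limma) and -0.87 (unadjusted P = 0.00745 from limma). All 6 macrophage markers were lower at 28 weeks in both diet groups, 3 of them by the study criterion in HF/HF and none in LF/HF offspring. Their mean log2 level ranged from 5.66 to 6.86 at 12 weeks and from 5.31 to 6.06 at 28 weeks in HF/HF mice, and from 5.92 to 6.62 and from 5.28 to 6.39 in LF/HF mice. All 6 endothelial markers were lower at 28 weeks in both diet groups as well, Lyve1 (-0.60, SE 0.18) and Pecam1 (-0.27, SE 0.096) by the study criterion in LF/HF and Clec4g (-0.28, SE 0.12) in HF/HF offspring. Their mean log2 level ranged from 6.49 to 6.85 at 12 weeks and from 5.93 to 6.60 at 28 weeks in LF/HF mice, and from 6.30 to 6.50 and from 6.03 to 6.40 in HF/HF mice. Stellate, biliary, lymphocyte and adipocyte markers went in both directions. By the criterion, Lrat (-0.53) and Sox9 (-0.47) were lower and Ms4a1 (0.54) and Cfd (0.85) higher at 28 weeks in HF/HF offspring. In LF/HF offspring Lrat (0.38), Cd3e (0.27) and Ms4a1 (0.27) were higher and Plin1 (-0.37) lower. Group means of Ms4a1, Cd3e and Plin1 were low, at most 2.87. The part of the cell type markers other than those of muscle in the differences of the 9 genes was not tested. Of 7 hepatocyte markers measured, none met the criterion between the ages, and their median differences were -0.0093 in LF/HF and -0.0015 in HF/HF offspring. In whole liver, fewer cells of a type and less RNA per cell cannot be told apart.

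Among the enzymes of gluconeogenesis, G6pc, whose product releases free glucose in the final step of the route, was the only one of the 3 to differ between the ages by the criterion, in LF/HF offspring. Its log2 intensity in LF/HF mice of 12 weeks was 8.58 in the lowest, 9.16 at the median and 9.78 in the highest mouse, and 7.99, 8.85 and 9.05 in those of 28 weeks. Every one of the 9 older mice lay below the mean of the younger ones, and 3 lay below all of them. G6pc was lower by -0.55 (SE 0.23, unadjusted P = 0.0200 and adjusted p = 0.293 from limma, exact permutation p = 0.0199). The call was lost without LF/HF replicate 5 of 12 weeks (-0.45, unadjusted P = 0.0599 from limma) and relative to Actb (-0.41, unadjusted P = 0.0658 from limma). It was not made within the second array series (-0.32, unadjusted P = 0.0939 from limma), and was made in the first (-0.74, unadjusted P = 0.0416 from limma).

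G6pc showed no such difference in HF/HF offspring, where the lowest, median and highest log2 intensity were 8.08, 8.89 and 9.56 at 12 weeks and 8.16, 8.69 and 10.12 at 28 weeks. The difference was -0.028, with a 95% confidence interval from -0.49 to 0.43. Its sign depended on the array series, with 0.35 in the first and -0.28 in the second. The age differences of the 2 diet groups were 0.52 apart (SE 0.32, unadjusted P = 0.110 from limma), so they were not shown to differ. This value passed the threshold without HF/HF replicate 2 of 12 weeks (0.64, unadjusted P = 0.0490 from limma) and in the first array series alone (1.09, unadjusted P = 0.0315 from limma).

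Pck1, the enzyme that commits oxaloacetate to glucose synthesis, did not meet the criterion in any comparison over all mice. Its highest group mean was 10.97 ± 0.55 (SD, n = 9) in HF/HF mice of 28 weeks, where 1 mouse lay at 9.76 and the others between 10.51 and 11.59. The other means were 10.90 ± 0.48 (SD, n = 7) in LF/HF mice of 12 weeks, 10.80 ± 0.23 (SD, n = 9) in LF/HF mice of 28 weeks and 10.71 ± 0.47 (SD, n = 7) in HF/HF mice of 12 weeks. All neighbours in this order overlapped. The 95% confidence intervals of the age difference were -0.52 to 0.32 in LF/HF and -0.16 to 0.68 in HF/HF offspring. Without the mouse at 9.76, HF/HF replicate 6 of 28 weeks, the difference in HF/HF offspring went from 0.26 to 0.41 and met the criterion (unadjusted P = 0.0309 from limma). In the first array series alone, the change of the diet difference of Pck1 was 0.69 (unadjusted P = 0.0372 from limma).

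Fbp1, which removes a phosphate from fructose bisphosphate and so opposes glycolysis, was held within narrow limits. The group means lay between 11.12 and 11.20, with SDs from 0.13 to 0.16. Its confidence intervals were the narrowest of the 3 enzymes, from -0.13 to 0.16 for age in LF/HF and from -0.22 to 0.072 in HF/HF offspring. One LF/HF mouse of 28 weeks, replicate 4, stood at 10.78, apart from the next at 11.05.

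Of the regulators, Ppargc1a, a coactivator that glucagon induces in liver, had its highest group mean at 28 weeks in HF/HF offspring, and its highest single value, 5.85, in an LF/HF mouse of 12 weeks. In HF/HF mice its log2 intensity was 4.63, 5.02 and 5.37 in the lowest, median and highest mouse at 12 weeks and 4.91, 5.39 and 5.73 at 28 weeks. The older group had 5 of 9 mice above every younger one. The difference was 0.29 (SE 0.15, unadjusted P = 0.0536 from limma, exact permutation p = 0.0748) and did not pass the threshold. It met the criterion with cyclic loess, with array weights and relative to Actb (unadjusted P from 0.0357 to 0.0456 from limma), narrowly with the replicate number as a block, and without HF/HF replicate 5 or 6 of 12 weeks or replicate 3, 7 or 9 of 28 weeks. In LF/HF offspring the difference was 0.024 (SE 0.15), and the difference between these 2 values, 0.27 (SE 0.21, unadjusted P = 0.202 from limma), was not shown.

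Foxo1, the transcription factor that Akt holds out of the nucleus, varied little between groups. Its mean log2 intensity was 6.16 ± 0.22 (SD, n = 7) and 6.05 ± 0.24 (SD, n = 7) at 12 weeks in LF/HF and HF/HF mice, and 6.02 ± 0.23 (SD, n = 9) and 6.09 ± 0.14 (SD, n = 9) at 28 weeks. None of its 4 differences was larger than 0.14, and all groups overlapped. The mRNA level does not show where the protein is or whether it is active.

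Insr, the insulin receptor, had the smallest spread, and small differences stood out in it. In LF/HF offspring its log2 intensity was 7.82, 7.91 and 7.98 in the lowest, median and highest mouse at 12 weeks and 7.61, 7.80 and 7.86 at 28 weeks. All 9 older mice lay below the mean of the younger ones, and 5 lay below every younger mouse. The difference was -0.14 (SE 0.057, unadjusted P = 0.0168 and adjusted p = 0.274 from limma, exact permutation p = 0.00437), a 1.104-fold change under the fold limit of the criterion. Relative to Actb, which was itself lower by -0.14 at 28 weeks in LF/HF offspring, the difference of Insr was -0.0073.

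The diet differences of Insr had opposite signs at the 2 ages, and neither passed the threshold. At 12 weeks the 7 HF/HF mice were without exception under the mean of the LF/HF mice and 4 of them under every LF/HF mouse, at 7.64, 7.81 and 7.87 for the lowest, median and highest. The difference was -0.11 (SE 0.060, unadjusted P = 0.0752 from limma, exact permutation p = 0.0134). At 28 weeks HF/HF mice stood at 7.71, 7.82 and 8.10, and 7 of 9 exceeded the mean of the LF/HF mice, with a difference of 0.087 (SE 0.053, unadjusted P = 0.111 from limma, exact permutation p = 0.110). The change of the diet difference between the ages was 0.20 (SE 0.080, unadjusted P = 0.0192 and adjusted p = 0.974 from limma). It was 0.15 relative to Actb (unadjusted P = 0.281 from limma), and 0.17 and 0.22 within the first and the second array series (unadjusted P = 0.200 and 0.127 from limma). Insr was the 1 member of 9 with an unadjusted P under 0.05 for this change, against 4.78% of all genes. The exact permutation tests were run 36 times, over 9 genes and 4 comparisons, and their p-values are unadjusted.

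Irs1, a docking protein of the receptor, was lower at 28 weeks in HF/HF offspring. Its log2 intensity was 5.65, 5.97 and 6.49 in the lowest, median and highest HF/HF mouse at 12 weeks and 5.10, 5.49 and 6.47 at 28 weeks. The older group had 6 of 9 mice below every younger one and 1 mouse almost as high as the highest. The difference was -0.36 (SE 0.16, unadjusted P = 0.0337 and adjusted p = 0.649 from limma), but the exact permutation p was 0.0837. The call was lost in 7 of 16 fits that left out 1 mouse, namely replicates 1, 2 and 7 of 12 weeks and 3, 6, 8 and 9 of 28 weeks (unadjusted P from 0.0513 to 0.105 from limma), and within either array series alone. It was also lost with the replicate number as a block (-0.26, unadjusted P = 0.102 from limma), relative to Actb (-0.27, unadjusted P = 0.106 from limma) and with clock phase as a covariate (-0.36, unadjusted P = 0.0700 from limma). In LF/HF offspring the difference was -0.13 (SE 0.16). The order of the group means was 5.98 ± 0.28 (SD, n = 7) in HF/HF and 5.74 ± 0.29 (SD, n = 7) in LF/HF mice of 12 weeks, then 5.62 ± 0.44 (SD, n = 9) in HF/HF and 5.61 ± 0.30 (SD, n = 9) in LF/HF mice of 28 weeks.

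Irs2, the docking protein whose gene insulin itself represses through Foxo1, lay just outside the threshold in LF/HF offspring. It was at 4.77, 5.20 and 5.41 in the lowest, median and highest mouse of 12 weeks and at 4.73, 4.90 and 5.18 at 28 weeks. Of 9 older mice, 8 lay below the mean of the younger ones. The difference was -0.25 (SE 0.12, unadjusted P = 0.0501 from limma, exact permutation p = 0.0151). It passed the threshold without LF/HF replicate 4 or 6 of 12 weeks or replicate 8 of 28 weeks, without the 3 mice with muscle markers, with clock phase as a covariate and in the first array series alone. In HF/HF offspring the difference was -0.12 (SE 0.12).

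Comparing the parental diets at a given age, none of the 9 genes met the study criterion at 12 or at 28 weeks, against 2.92% and 2.15% of all genes. No gene of the table reached an adjusted p under 0.05 from limma at either age. Of 21115 genes, 998 and 1083 had an unadjusted P under 0.05 from limma, close to the share of 0.05 that chance alone gives at this limit. The HF/HF and LF/HF mice of the same age overlapped for every member, and the share of all genes that did so was not counted. At 12 weeks the widest differences were those of G6pc, -0.36 (95% confidence interval -0.84 to 0.13), and Irs1, 0.24 (-0.11 to 0.59). In G6pc, 6 of 7 values in HF/HF mice were under the mean of the LF/HF mice (exact permutation p = 0.157), and in Irs1, 6 of 7 were over it (exact permutation p = 0.145). At 28 weeks the widest difference was that of Igfbp1, 0.34 (-0.32 to 1.001), where 7 of 9 values in HF/HF mice exceeded the mean of the LF/HF mice (exact permutation p = 0.283). G6pc met the criterion for diet within single array series, and at 28 weeks in opposite directions. Its difference at 28 weeks was 0.81 in the first series (unadjusted P = 0.0169 from limma), -0.43 in the second (unadjusted P = 0.0230 from limma) and 0.16 over all mice, or 0.19 with the array series as a block. At 12 weeks it was -0.28 in the first and -0.47 in the second series (unadjusted P = 0.438 and 0.0277 from limma). No other member met the criterion for diet within either series.

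Other genes of these pathways were read from 6 lists. Genes that insulin induces for glycolysis and fatty acid synthesis stood higher at 28 than at 12 weeks, 12 of 13 in LF/HF and all 13 in HF/HF offspring, with median log2 differences of 0.31 and 0.34 against 0.012 and 0.0032 over all genes. By the study criterion 3 rose in each group, against 3.31% of all genes in LF/HF and 1.76% in HF/HF offspring. Among the 3 of LF/HF offspring were Srebf1 (0.46, SE 0.21), the transcription factor of fatty acid synthesis, and Pnpla3 (0.41, SE 0.12), which encodes a lipid droplet protein. The group means of Pnpla3, 2.69 to 3.10, lay within those of 4 exocrine pancreas genes, 1.57 to 3.53, so its signal was not above that of genes foreign to the liver. The 3 of HF/HF offspring were Me1 (0.55, SE 0.22), the malic enzyme that supplies NADPH, the desaturase gene Scd1 (0.37, SE 0.18) and Srebf1 (0.44, SE 0.21). None of them passed an adjusted p of 0.05 from limma. At both ages most genes of this list were lower in HF/HF than in LF/HF offspring, 10 and 12 of 13, with median differences of -0.21 and -0.22. The elongase gene Elovl6 at 12 weeks (-0.54, SE 0.25, unadjusted P = 0.0382 from limma) was the only one to meet the criterion. For diet, 2.92% and 2.15% of all genes met it at 12 and 28 weeks. No gene of the list had an adjusted p under 0.05 from limma for diet, and the direction of the list as a whole was not tested.

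Genes of the fasting response that insulin represses were lower at 28 weeks in 10 of 13 cases in LF/HF and 7 of 13 in HF/HF offspring. Relative to Actb they were lower in 5 of 13 in each. In LF/HF offspring 3 fell by the criterion, namely Txnip (-0.48, SE 0.14), an inhibitor of glucose uptake, Angptl4 (-0.47, SE 0.14), a secreted inhibitor of lipoprotein lipase, and Igfbp2 (-0.49, SE 0.15), a relative of Igfbp1. No gene of this list met the criterion in HF/HF offspring, where Igfbp2 was at -0.24 (SE 0.15). Of all genes, 3.92% were lower by the criterion in LF/HF and 2.33% in HF/HF offspring, and 2.92% met it for diet at 12 weeks. Txnip and Angptl4 were also lower in HF/HF than in LF/HF offspring at 12 weeks, by -0.51 (SE 0.14) and -0.44 (SE 0.15). This comparison shares its LF/HF mice of 12 weeks with the age difference above. The mean log2 level of the list in those mice ran from 8.31 to 8.83, with a median of 8.37. How the genes of the lists depend on single mice or on the mice with muscle markers was not tested. Of the 8 binding proteins and partners of insulin-like growth factors, Igfbp2 was the only one to meet the criterion in any comparison.

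Of 18 measured enzymes and carriers of gluconeogenesis beside the 3 members, Slc25a10, the mitochondrial dicarboxylate carrier, rose between the ages in both groups by the criterion (0.35, SE 0.10, in LF/HF and 0.28, SE 0.10, in HF/HF offspring). The alanine aminotransferase gene Gpt2 rose in HF/HF offspring by this criterion (0.27, SE 0.12) and was at 0.20 (SE 0.12) in LF/HF offspring, 2 values that were 0.068 apart (SE 0.17, unadjusted P = 0.694 from limma). Slc37a4, the carrier that brings glucose 6-phosphate to the enzyme encoded by G6pc, was lower in HF/HF than in LF/HF offspring at 12 weeks (-0.43, SE 0.15, unadjusted P = 0.00617 from limma). At 28 weeks no enzyme of the list met the criterion for diet. Over all genes, 3.31% in LF/HF and 1.76% in HF/HF offspring were higher at 28 weeks by the criterion. For diet it was met by 2.92% of all genes at 12 and by 2.15% at 28 weeks.

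Among 26 genes that control gluconeogenesis, 21 were lower at 28 weeks in LF/HF offspring, and 4 by the criterion. These were the nuclear receptor genes Nr4a1 (-0.60, SE 0.18) and Hnf4a (-0.41, SE 0.14), the coactivator gene Ppargc1b (-0.33, SE 0.13) and the kinase gene Sik1 (-0.53, SE 0.23), named after its value was seen. The group means of Nr4a1, 2.54 to 3.21, also lay within those of the exocrine pancreas genes. Relative to Actb, a scaling that shifts all genes by 0.14, 11 of 26 were lower. Among HF/HF offspring 12 were lower and none met the criterion. Of all genes, 3.92% and 2.33% were lower by the criterion in LF/HF and HF/HF offspring. Nr4a1 was also lower in HF/HF than in LF/HF mice of 12 weeks (-0.56, SE 0.19), a comparison that shares these LF/HF mice with the age difference above. Among 27 genes of insulin signaling, Inppl1, a lipid phosphatase (-0.35, SE 0.11), and Trib3, an inhibitor of Akt (-0.47, SE 0.20), were lower at 28 weeks in LF/HF offspring, and none met the criterion in HF/HF offspring. Trib3 was higher in HF/HF than in LF/HF mice of 28 weeks (0.39, SE 0.19), and these LF/HF mice are shared with its age difference. At 12 weeks Tsc1 was higher in HF/HF offspring (0.32, SE 0.12) and Pik3r1, the regulatory subunit of the kinase that insulin receptor substrates recruit, was lower (-0.28, SE 0.12). All of these genes had adjusted p-values above 0.05 from limma. The criterion for diet was met by 2.92% of all genes at 12 and by 2.15% at 28 weeks.

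**Figure D4:**
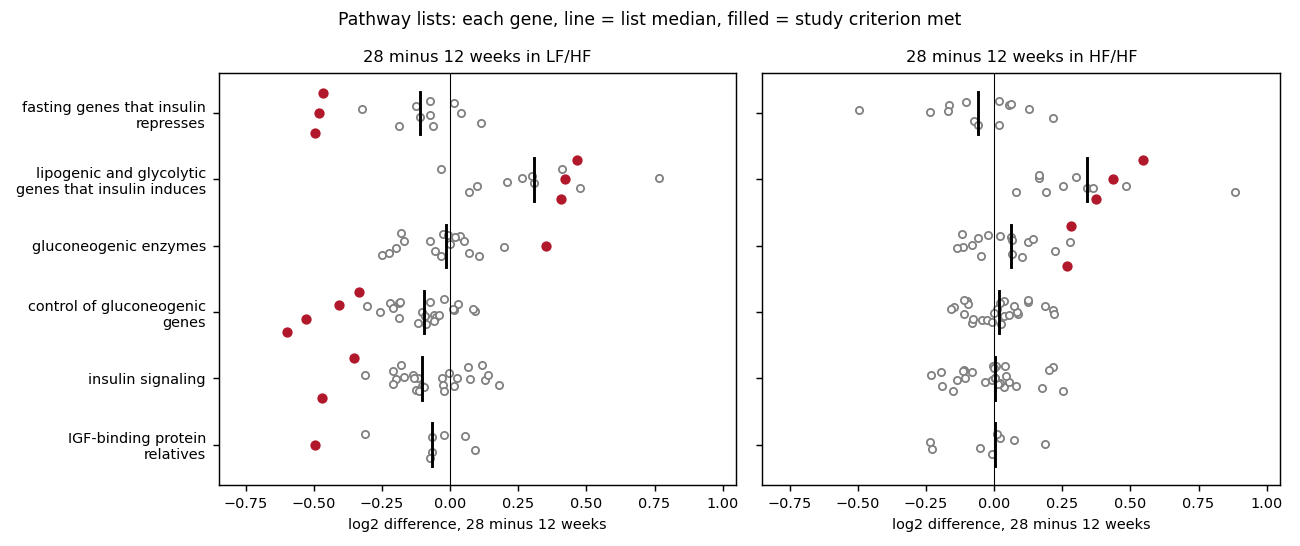
Log2 difference between 28 and 12 weeks of each gene in 6 pathway lists, in LF/HF (left) and HF/HF (right) offspring; filled points met the study criterion and vertical lines mark the list medians. The insulin-induced list has medians of 0.31 and 0.34, and the filled points of the control and signaling lists all lie to the left of 0 in LF/HF offspring.

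Whether mice high in 1 member were high in another was asked over all 36 pairs, after the group mean had been subtracted from each mouse. No pair passed an adjusted p of 0.05 over the 36 pairs, and 4 had an unadjusted p under 0.05 by permutation of the 32 mice within groups. Pck1 and Insr had r = -0.56 (rho = -0.43, permutation p = 0.00222 and 0.0157, adjusted 0.0616 and 0.189). Without the 2 mice farthest from the median of Pck1 this was r = -0.32 (permutation p = 0.0902), so its size depended on those mice. In single groups it was -0.76 and -0.080 at 12 weeks in LF/HF and HF/HF mice, and -0.38 and -0.83 in those of 28 weeks. Foxo1 and Igfbp1 had r = -0.55 (rho = -0.46, permutation p = 0.00342 and 0.0150, adjusted 0.0616 and 0.189), and r = -0.47 without the 2 mice farthest from the median of Foxo1. Within groups the latter was -0.59 and -0.74 at 12 weeks in LF/HF and HF/HF mice, and -0.55 and -0.074 in those of 28 weeks. The other pairs with an unadjusted p under 0.05 are not described here. Pck1 and Igfbp1 had r = 0.34 (rho = 0.51, permutation p = 0.0547 and 0.00791, adjusted 0.342 and 0.189). Without the 2 mice farthest from the median of Pck1 their r was 0.50 (permutation p = 0.0152, adjusted 0.245).

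The genes most like each member over the 32 mice, by Pearson r of the deviations from the group means, are a description with no test. For Igfbp1 they were Spink3 (0.78), Scn2a1 (0.77) and Btg2 (0.76), and for G6pc they were Slc25a25 (0.76), Ssh3 (0.67) and Mdm2 (0.66). Pck1 was most like Mettl7b (0.74), Slc7a2 (0.70) and Oaf (0.69). For Fbp1 the closest were Dynlt3 (0.80), Uox (0.75) and Bche (0.73), for Ppargc1a they were Ppp2r3a (0.67), Rdx (0.67) and Mpp4 (0.66), and for Foxo1 they were Lcat (0.83) and Xpo6 (0.83). Ccdc6 (0.78) and E2f4 (0.75) were most like Irs1. Irs2 had Lppr2 (0.66), Fam78b (0.63) and Foxk1 (0.61), and Insr had Gpld1 (0.68), Ces3b (0.68) and Rcbtb1 (0.67). No member was among the 3 closest genes of another. The values share their arrays and normalization.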

How the data were processed

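Liver RNA of 32 mice was measured on Mouse Gene 1.1 ST arrays of Affymetrix, 1 per mouse. Signals were normalized by the authors with RMA in the MADMAX pipeline and deposited as intensities on the linear scale. The versions and the genome build are not given in the sources used here. A second deposited table holds the same values (largest log2 difference 7.15e-10) under sample names. It served wherever replicate numbers were needed, since the columns of the first table give the group and array series but no replicate. The 12 columns of the authors' own comparisons (fold changes, p-values, q-values) were not used.

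Intensities were log2-transformed (R 4.3.3), and the 21115 rows were fitted without any filter by limma 3.58.1, in a model of the 4 group means on 32 arrays, with an intensity trend in eBayes. Adjustment followed Benjamini and Hochberg over all rows. The study describes its test as paired. The pairs are not given, so mice were independent here. Differences of single genes were also tested by enumeration of all splits of the mice (two-sided exact permutation test, Python 3.11.15). Correlations used 100000 permutations within groups (numpy 2.4.6, scipy 1.17.1). The fit was also run on simulated independent normal values. These held no array series or litters, so that run does not show how the fit performs on these mice. The number of arrays limits the precision.

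The 9 genes and all lists were chosen with earlier results of these data known. Named were the 9 genes, up to 4 genes of smallest p per list and comparison, and the 3 most similar genes of each member, without predicted or unnamed genes. Some genes that this rule names are not reported here. Got2 and Pgam1 of the enzyme list were not found by name. Alternatives concerned the model (no trend, a fit to the compared groups, array weights, a block for replicate number or array series, a clock phase term), the values (cyclic loess, scaling to Actb, restriction to brighter genes, the second table), the mice (either array series, omission of 3 mice with muscle markers or of any 1 mouse) and the thresholds.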

Additional observations from a re-analysis of the deposited data

Results flagged for a closer look

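In 36 sets of values, 9 genes in 4 groups, 2 mice lay far from the others of their group, where chance alone gives about 1 in 20. Igfbp1 in LF/HF replicate 7 of 28 weeks had a log2 intensity of 7.83, while the next mouse was at 6.38. Without this mouse the difference of Igfbp1 between the ages in LF/HF offspring was -1.68 (adjusted p = 0.00537 from limma). Fbp1 in LF/HF replicate 4 of 28 weeks had a log2 intensity of 10.78, the next mouse being at 11.05.

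The estimated diet difference of Insr changed by 0.20 on the log2 scale (28 minus 12 weeks, unadjusted P = 0.0192 from limma). This change did not pass adjustment over all genes (adjusted p = 0.974 from limma), and 4.78% of all genes had an unadjusted P under 0.05 for it. All 7 HF/HF mice of 12 weeks were below the mean of the LF/HF mice of 12 weeks. At 28 weeks 7 of 9 HF/HF mice were above the mean of the LF/HF mice of 28 weeks. Relative to Actb the change was 0.15 (unadjusted P = 0.281 from limma). It was 0.17 and 0.22 within the first and the second array series (unadjusted P = 0.200 and 0.127 from limma).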

How the results depend on the processing

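Of the values of the 9 genes under alternatives other than leaving out a mouse, 523 kept their direction and their side of the study criterion, 11 lost it, 11 gained it and 31 changed sign. None of the 31 had met the criterion over all mice, and 1 of them, G6pc for diet at 28 weeks in the second array series, met it there. Igfbp1 stayed lower at 28 weeks under every alternative run, but its call in HF/HF offspring was lost in the second array series alone. No pair of members passed the adjusted p under any alternative.

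The number of members past the study criterion between the ages was 1 in both LF/HF and HF/HF offspring, in place of 2, with a fold limit of 1.5 and with a P limit of 0.01. In LF/HF offspring it was 1 relative to Actb and 1 in the second array series alone. In HF/HF offspring it was 1 in the first array series alone, 0 in the second and 1 with clock phase as a covariate. For parental diet it was 1 in place of 0 in the second array series alone at 12 weeks, and 1 in each series alone at 28 weeks, in each case G6pc. For the change of the diet difference it was 0 relative to Actb, 2 in the first array series alone and 0 in the second, in place of 1. The number past the adjusted p in LF/HF offspring was 0 in place of 1 with a replicate block, relative to Actb, with clock phase as a covariate and in each array series alone. Fits to 1 series hold fewer arrays, and the cause was not tested otherwise.

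When each mouse was left out in turn, the members past the criterion numbered 0 throughout for parental diet at either age, 1 to 2 for the change of the diet difference, and 1 to 3 for age in each diet group, with 0 to 1 past the adjusted p in LF/HF and 0 in HF/HF offspring. For parental diet, the values of Igfbp1 at 12 weeks ran from -0.24 to 0.34. At 28 weeks G6pc ran from -0.00099 to 0.24, Fbp1 from -0.054 to 0.014, Irs1 from -0.094 to 0.076 and Irs2 from -0.070 to 0.024. For age in LF/HF offspring, Fbp1 ran from -0.017 to 0.060 and Ppargc1a from -0.043 to 0.13. In HF/HF offspring G6pc ran from -0.19 to 0.094 and Foxo1 from -0.013 to 0.089.

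The signs that changed are these. For parental diet at 12 weeks, Igfbp1 was -0.069 with array weights, -0.50 in the second array series alone, -0.21 without the mice with muscle markers and -0.11 with clock phase as a covariate, and Ppargc1a was 0.0054 in the second series. At 28 weeks Irs1 was -0.0016 relative to Actb, Fbp1 0.073 and Irs2 0.063 in the first series, G6pc -0.43 in the second, and Irs2 0.0043 without the mice with muscle markers. For age in LF/HF offspring, Fbp1 was -0.0031 with a replicate block, -0.0032 with cyclic loess, -0.0047 in the second series and -0.018 without the mice with muscle markers. Relative to Actb, Pck1 was 0.035 and Irs1 0.0039. Pck1 was 0.093 in the second series, and Ppargc1a -0.080 in the first and -0.0039 with clock phase as a covariate. For age in HF/HF offspring, G6pc was 0.14 with a replicate block, 0.0059 with array weights, 0.064 relative to Actb, 0.35 in the first series, 0.021 without the mice with muscle markers and 0.093 with clock phase as a covariate. Foxo1 was -0.0027 with array weights, -0.046 in the second series, -0.013 without the mice with muscle markers and -0.081 with clock phase as a covariate. Fbp1 was 0.017 relative to Actb, and Irs2 0.053 in the second series.

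Deviations from the group mean of mice with the same replicate number correlated from -0.16 to 0.105 between the diets at 12 weeks and from -0.096 to 0.103 at 28 weeks. Between the ages they correlated from -0.15 to 0.024 in LF/HF and from -0.059 to 0.344 in HF/HF offspring. Such correlations do not show whether the mice were paired in another way. With the replicate number as a block, Igfbp1 differed by -1.31 between the ages in LF/HF offspring (adjusted p = 0.134 from limma). Ppargc1a gained and Irs1 lost the call in HF/HF offspring. Between the ages, 1714 genes in place of 1525 then met the criterion in LF/HF offspring, and 968 in place of 865 in HF/HF offspring. Scaling to Actb shifted all genes by 0.14 in LF/HF and 0.092 in HF/HF offspring between the ages. It moved the calls over all genes from 698 higher and 827 lower to 3104 and 195 in LF/HF, and from 372 and 493 to 1166 and 140 in HF/HF offspring. For parental diet it moved them from 306 and 311 to 392 and 158 at 12 weeks, and for the change of the diet difference from 460 and 549 to 137 and 407. Restriction to the brighter genes, those with a mean from the median upwards, gave 372 calls in place of 617 for diet at 12 weeks, 256 in place of 455 at 28 weeks and 542 in place of 1009 for the change, as fewer genes were tested, the last being 302 higher and 240 lower. At 28 weeks the first array series alone gave 1122 calls, the second 797 and omission of the mice with muscle markers 709.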
